A study of Mus musculus with 8 samples.

Results

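The miR-297, miR-466, miR-467 and miR-669 names are 80 of the 1915 mature miRNA names measured by small RNA sequencing in mouse prefrontal cortex. They were taken by name alone: any of those 4 numbers, with or without a letter, a locus number and an arm (5p or 3p, the strand of the hairpin that the mature miRNA comes from). The prefrontal cortex came from C57BL/6 mice at 12 weeks of age, 4 wild-type libraries (replicates 1, 2, 3 and 4) and 4 from Fkbp5 knockout mice (replicates 1, 2, 4 and 5). The protein that Fkbp5 encodes works with Hsp90 and restrains the glucocorticoid receptor. Libraries of small RNA do not measure its transcript, so the genotype labels could not be checked here. The labels do not describe the knockout allele, and they do not say whether each library is a separate animal, so the p-values below measure the spread between these samples.

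These miRNAs form one of the largest miRNA clusters of the mouse genome, in an intron of Sfmbt2, a Polycomb gene that is expressed from the paternal allele in extraembryonic tissue. The cluster is found in rodents, arose by repeated duplication, and is best known from placenta and embryonic stem cells. Its hairpins are built from short dinucleotide repeats, and several mature names share the same or nearly the same sequence, so a single short read can match many loci.

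On GRCm38, the assembly that mm10 names, the annotation held 81 hairpin genes with these numbers. Sfmbt2 lies on chromosome 2 from 10370510 to 10595253, and 71 of the 81 hairpins lay inside it, on its own strand, between 10466663 and 10518279. That stretch of 51.6 kb held 0 exons of Sfmbt2, so all 71 lie in 1 intron. By number, 29 of 30 miR-669 hairpins, 23 of 28 miR-466 hairpins, 14 of 17 miR-467 hairpins and 5 of 6 miR-297 hairpins were in the cluster. The copies were unequal: miR-669a has 12 hairpin genes, miR-467a has 10 and miR-466b has 8. The other 10 hairpins are scattered. Mir466i lies on chromosome 13 (17747473 to 17747593) within an intron of Cdk13 on the opposite strand, and Mir466q on chromosome 3 (28419943 to 28420018) within an intron of Tnik on the same strand. There were 0 named miRNAs of any other number inside Sfmbt2. The annotation also held 48 unnamed miRNA gene models there, which are not among the 81 and enter none of the hairpin numbers below.

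Mature sequences were taken from RefSeq (GRCm38.p6), where 8 of the 80 names matched, all of them from hairpins outside Sfmbt2. They are shown for the repeat that they hold, and its part in the shared values described below was not tested. Each is written 5′ to 3′ with its seed, bases 2 to 8, in capitals.
miR-466i-3p: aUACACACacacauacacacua
miR-466q: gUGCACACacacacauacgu
miR-467f: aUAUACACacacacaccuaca
miR-467g: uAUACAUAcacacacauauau
miR-466k: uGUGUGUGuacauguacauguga
miR-466j: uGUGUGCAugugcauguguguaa
miR-467h: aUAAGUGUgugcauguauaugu
miR-669n: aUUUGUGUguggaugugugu
The first 4 each hold a stretch of alternating A and C, and the other 4 a stretch of alternating U and G, its complement, with other bases before or after it. The longest unbroken alternation was 12 bases in miR-466q and miR-467f and 7 in miR-466j and miR-467h. Although they look alike, 0 of the 8 share a seed with one another. The seed of miR-467h is also that of miR-668-5p, and the other 7 seeds belong to no other name with a sequence. A run of UGUGUGUG or ACACACAC occurred in 6 of these 8 and in 5 of the 1615 other names with a sequence (0.31%). Both motifs were searched on the mature strand, which covers either strand of the repeat, and they share no letters.

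Of the 80 names, 66 had a value above 0 in at least 1 library (82.5%, against 69.5% of all 1915 names), 32 had one in all 8 libraries, and 14 were at 0 throughout. A single library held 39 to 51 of them, with means of 45.0 ± 4.32 (wild type) and 44.5 ± 5.80 (knockout, SD, n = 4 each). The 32 are 40.0% of the members, near the 38.7% of all names that were above 0 in all 8. Names above 0 in just 1 library numbered 11 (13.8%, against 8.30% of all names), and 37 reached a value of 10 in some library (46.3%, against 35.9%). The 37 include names that repeat one another's values. Among them are miR-466m-5p and miR-669m-5p, at a single 10, and miR-466b-5p and miR-466o-5p, at 0, 10 or 30. By number, all 6 miR-297 names, 26 of 31 miR-466 names, 12 of 13 miR-467 names and 22 of 30 miR-669 names were seen at least once. Of the 9 names whose hairpins all lie outside Sfmbt2, 7 were detected, and miR-466i-5p was the one at a high level. Of the 8 names printed above, miR-466k and miR-467g were at 0 in all 8 libraries. miR-466i-3p was the one with a value in every library, from 1 to 9 as deposited.

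The 66 detected names were not 66 measurements. In 11 groups, 24 names repeated one another's deposited values exactly in all 8 libraries, which left 53 distinct sets of values. In 3 of the 11 groups the shared value was above 0 in 1 library only. One of them, miR-467f with miR-669l-3p, was a single value of 1 in knockout replicate 1 that 11 names of the whole table share, and another, miR-466f with miR-466f-5p, was a single value of 4 that is also shared by a name outside the members. 7 of the 11 groups were at a mean of at least 20, and in the whole table there were 10 such groups. They were miR-467a-5p with miR-467b-5p, miR-466b-3p with miR-466c-3p and miR-466p-3p, miR-466a-3p with miR-466e-3p, miR-669a-5p with miR-669p-5p, miR-467a-3p with miR-467d-3p, miR-669a-3p with miR-669o-3p, and miR-297a-3p with miR-297b-3p and miR-297c-3p. The grouping followed arms, not hairpins. miR-467a shared its 5p values with miR-467b and its 3p values with miR-467d, and miR-669a shared its 5p values with miR-669p and its 3p values with miR-669o. A further pair was nearly the same: the deposited value of miR-466a-3p was 93.96 to 95.27% of that of miR-466b-3p in each library, lower by 57 to 100. Counts below are therefore given by name and by distinct set of values.

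Of the 7 abundant groups, 5 also moved in steps, while the values of miR-466b-3p and of miR-466a-3p had no common divisor above 1. Every deposited value of miR-669a-5p was a multiple of 14: it was 1204, 1414, 518 and 546 in wild-type replicates 1, 2, 3 and 4 and 700, 756, 924 and 1008 in knockout replicates 1, 2, 4 and 5. Those are 86, 101, 37, 39, 50, 54, 66 and 72 steps. The values of miR-467a-5p and miR-467a-3p were multiples of 11, those of miR-669a-3p multiples of 12, and those of miR-297a-3p multiples of 4. At a mean of at least 20, 11 of 27 member names (40.7%) had a divisor above 2 common to all 8 values, which is 5 of 18 (27.8%) with identical rows counted once. Among 491 other names 0 did, and 6 (1.22%) had a common divisor of 2.

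The steps were set beside the number of hairpin genes, and the numbers were equal for 3 of the 7 abundant groups. miR-669a and miR-669p together have 14 hairpin genes, and their 5p step was 14. miR-467a with miR-467b, and miR-467a with miR-467d, have 11 each, and both steps were 11. miR-669a with miR-669o have 13 against a 3p step of 12, and 1 of those hairpins has a 3p name of its own, miR-669a-3-3p. The miR-297a, miR-297b and miR-297c names have 6 hairpin genes against a step of 4. The miR-466b, miR-466c and miR-466p names have 11 hairpin genes and miR-466a with miR-466e have 2, and the 3p values of both groups had a divisor of 1. How reads that match several loci were counted is not given in the sources used here. A level of 857.5 for miR-669a-5p (rescaled mean over 8 libraries) is 61.3 in steps, and one of 1348 for miR-467a-5p is 123 in steps. The values of miR-669c-5p (1404) and miR-466i-5p (846) had no common divisor above 1. Levels of the stepped names may therefore not be on 1 scale with those 2, which was not tested. At low values, miR-466m-5p and miR-669m-5p (3 hairpin genes) were at 10 in wild-type replicate 4 and at 0 in the other 7 libraries. miR-466b-5p and miR-466o-5p (9 hairpin genes) took only the values 0, 10 and 30, and the single value of 4 for miR-466f and miR-466f-5p stands beside 4 hairpin genes. Other low names detected in at least 2 libraries also had steps. The step was 3 for miR-669b-5p (1 hairpin gene) and miR-466c-5p (2 hairpin genes). It was 2 for miR-669k-5p, miR-466e-5p and miR-466p-5p (1 hairpin gene each) and for miR-669d-5p and miR-669m-3p (2 hairpin genes each).

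**Figure D1:**
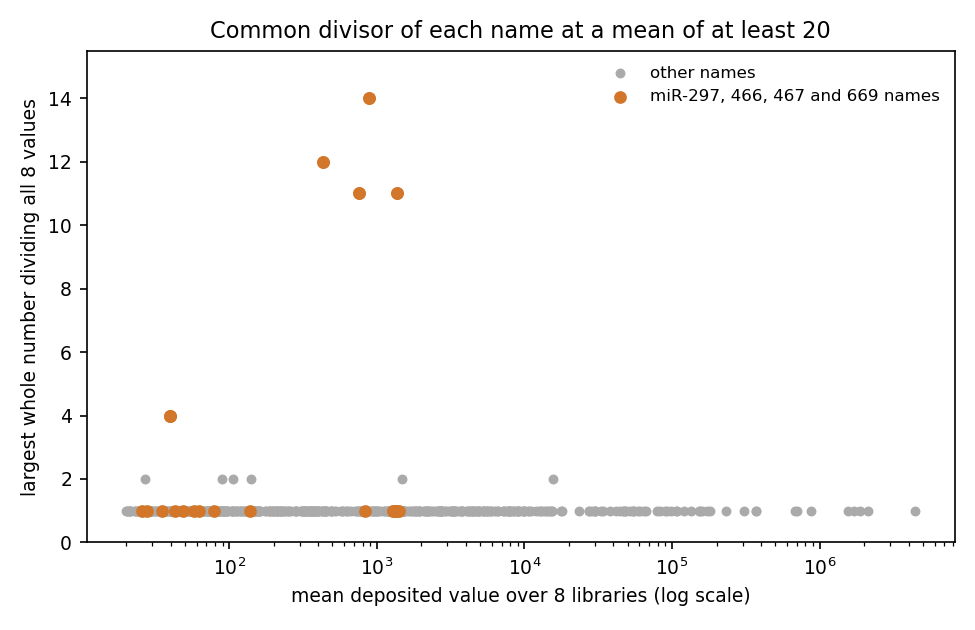
Largest whole number that divides all 8 deposited values of a name, against its mean deposited value (log scale), for names at a mean of at least 20. Orange points are the miR-297, miR-466, miR-467 and miR-669 names (27 names, of which those with identical values overlie each other), and grey points are 491 other names; divisors of 4, 11, 12 and 14 occur only among the orange points.

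Levels below are rescaled values, the deposited values divided by 1 scaling factor per library (0.838 to 1.21). With identical rows counted once, all members together summed to 8415, 9099, 7446 and 10044 in wild-type replicates 1, 2, 3 and 4, and to 8966, 7415, 9846 and 9632 in knockout replicates 1, 2, 4 and 5. The genotypes overlapped, at 8751 ± 1097 and 8965 ± 1099 (SD, n = 4 each), a ratio of 1.02. As a share of everything counted they were 386 to 553 per 1000000 of the library's values. The miR-466 names summed to 3647 ± 670 (wild type) and 3786 ± 563 (knockout), the miR-669 names to 2818 ± 646 and 2776 ± 426, the miR-467 names to 2241 ± 570 and 2356 ± 301, and the miR-297 names to 45.0 ± 12.1 and 47.2 ± 25.6. These ratios of knockout to wild type ran from 0.985 for miR-669 to 1.05 for miR-467, and each differed from 1 by less than the spread between libraries of a genotype. Sums of stepped names depend on the scale. An alternative chosen after seeing the data divided each row at a mean of at least 20 by its common divisor. All members then summed to 5619 ± 457 (wild type) and 5873 ± 864 (knockout), a ratio of 1.04. On that scale the miR-669 ratio was 1.05 and the miR-297 ratio 0.975, each on the other side of 1, and the miR-467 ratio was 1.105, while miR-466 stayed at 1.04. All of these also lay within the spread between libraries. The sums still hold both miR-466a-3p and the nearly equal miR-466b-3p.

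**Figure D2:**
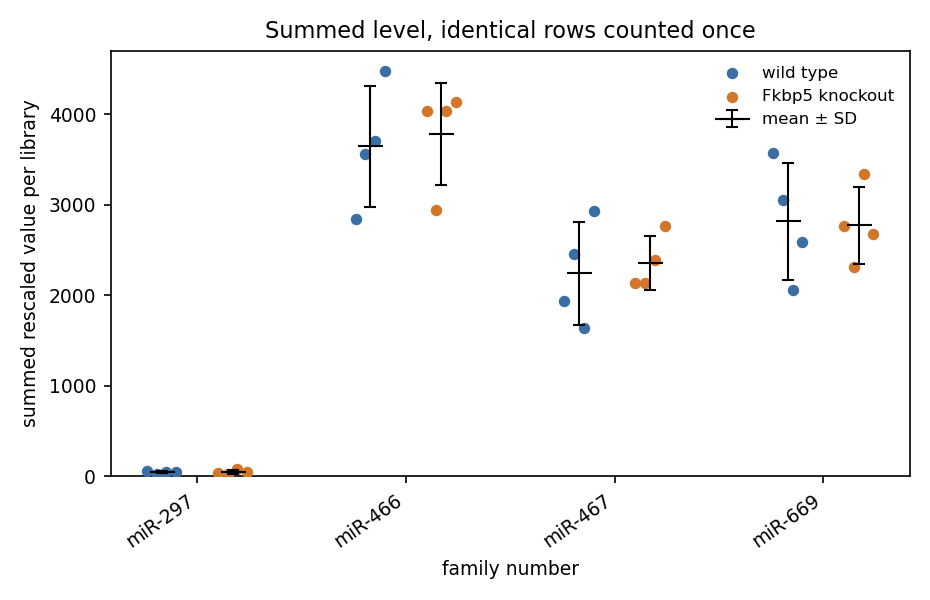
Summed rescaled value of each family number in each library, identical rows counted once, wild type in blue and Fkbp5 knockout in orange (4 libraries each), with mean ± SD in black. The genotypes overlap for all 4 numbers, and knockout replicate 2 (2944) lies below the other 3 knockout libraries for miR-466.

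Arm use was read for 24 hairpin names, of which 15 were almost wholly on 1 arm, although 8 of the 15 rest on values shared with another name. Of the 24, which have both arms listed and at least 1 arm at a mean of 10, 8 gave over 95% of their value as 5p in every library, 7 gave over 95% as 3p, and 9 neither. The 7 names with values of their own were miR-466d on the 3p side and miR-466i, miR-467c, miR-467e, miR-669c, miR-669d and miR-669h on the 5p side. For miR-669d this rests on miR-669d-3p, at 0 throughout, and leaves out its other 3p name, miR-669d-2-3p. In knockout replicate 1, miR-669d-2-3p was at 2 and miR-669d-5p at 14 as deposited, which is under 95% as 5p. For the miR-466 hairpins of the cluster that are among these 24, the 3p arm was the higher. miR-466b-3p averaged 1341 against 5.55 for miR-466b-5p, and miR-466d-3p 78.0 against 0 for miR-466d-5p. Outside the 24, at low levels, the means of miR-466o and miR-466m were higher on 5p and that of miR-466n on 3p. For miR-466m this rests on a 10 in wild-type replicate 4 alone, shared with miR-669m-5p. miR-466m-3p was above 0 in 4 libraries, at 1 to 3 as deposited. The miR-466o-5p values (0, 10 and 30) are also those of miR-466b-5p. miR-466f and miR-466h missed the 95% limit, with up to 5.71% and 7.89% as 5p in a library. miR-466i, outside the cluster, was the reverse, with 846 for the 5p arm and 3.44 for the 3p arm (97.4 to 99.9% as 5p). Of the miR-669 names with values of their own on both arms, miR-669c, miR-669d and miR-669h were 5p, with miR-669c-5p at 1404 against 0.11 for miR-669c-3p, and miR-669h-3p at 0. miR-467c and miR-467e were 5p as well, miR-467e-5p at 136 against 0.363. miR-467a gave both arms, with 53.8 to 72.3% as 5p, and so did miR-669a, with 44.0 to 76.9%. The miR-669a percentage sets a 5p step of 14 against a 3p step of 12. In steps its arms averaged 61.3 (5p) and 35.3 (3p). Identical rows enter these ratios under several names: the 3p value listed for miR-467d or miR-669o is also that of miR-467a or miR-669a, so their own arm use cannot be told apart.

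**Figure D3:**
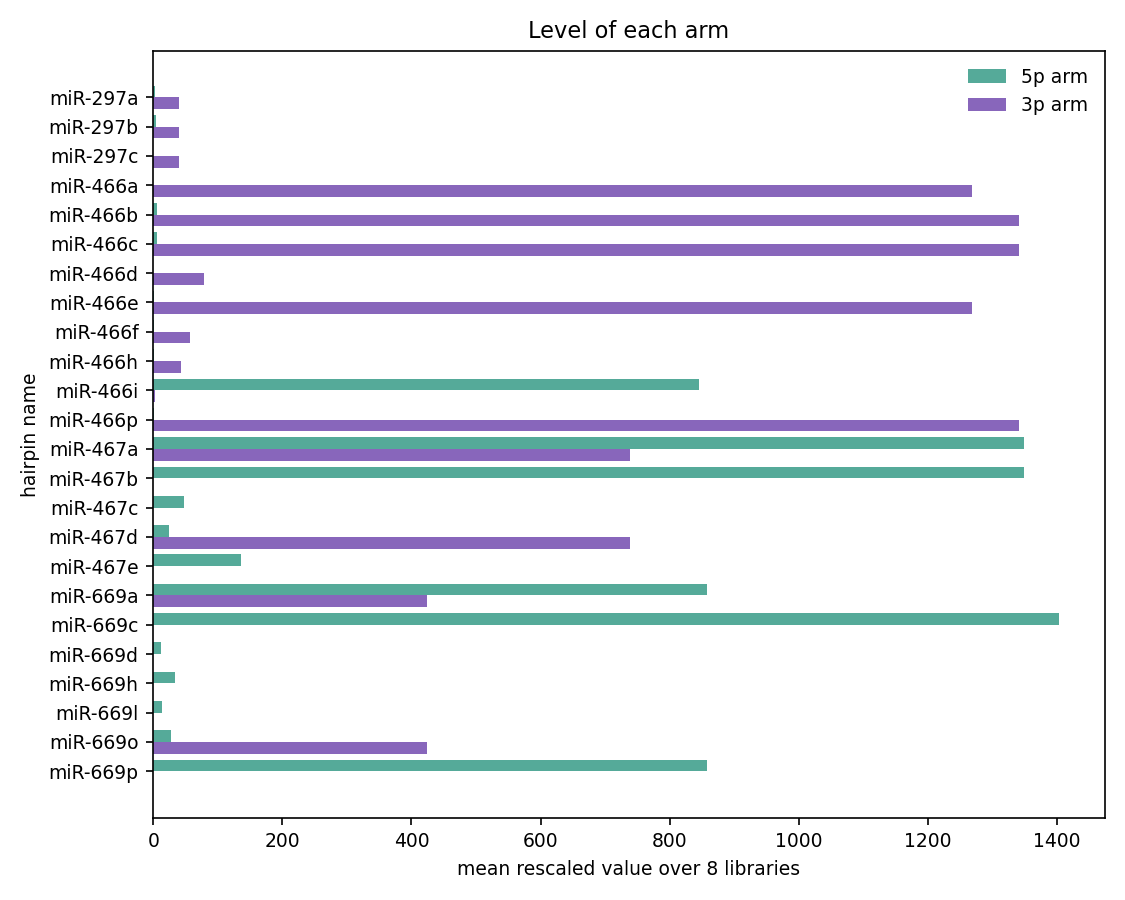
Mean rescaled value over the 8 libraries of the 5p (green) and 3p (purple) arm of each of the 24 hairpin names with both arms listed and at least 1 at a mean of 10. The bars of miR-466a, miR-466b and miR-466p are almost wholly purple, and those of miR-466i, miR-467b, miR-669c and miR-669p almost wholly green.

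The comparison by genotype asks whether the levels of these names differ when Fkbp5 is missing. Only names with enough signal were tested (10 or more, on the scale of the median library, in 4 or more of the libraries). Of the 80, 29 passed, as 20 distinct sets of values. Across all 599 names tested, 0 passed a Benjamini-Hochberg adjusted p of 0.05 by limma (0%), and 0 of the 29 member names did. At an unadjusted p of 0.05, 25 of the 599 passed (4.17%) and 0 of the 29. Groups without overlap were found for 12 of the 599 (2%) and for 0 of the 29. The smallest unadjusted p among the members was 0.162 (miR-669l-5p) and each of their adjusted p values was 0.999. The median log2 fold change was 0.01 over the 29 names, 0.05 over the 20 distinct sets and 0.01 over all 599. Of the 29 names, 18 had a higher mean log2 value in the knockout and 11 a lower one, beside 53.6% higher among all 599. By distinct set it was 13 and 7. The split turned with the setting: it was 24 higher and 5 lower with upper quartile scaling, and 23 and 6 with scaling by library total. Leaving out wild-type replicate 4, or knockout replicate 2, gave 23 and 6. Leaving out wild-type replicate 3 gave 12 and 17, leaving out knockout replicate 4, or 5, gave 11 and 18, and replicates 1, 2 and 4 alone gave 10 and 20 of 30 names. The 95% interval lay within a 2-fold change either way for 16 of the 20 distinct sets, and for 86.8% of all 599.

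Standard errors were 0.18 to 0.43 for the 20 sets, with a median of 0.24, against a median of 0.18 over all 599. The members' median level was 69.4 over the 20 sets and 423 over the 29 names, against 279 over all 599 names.

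**Figure D4:**
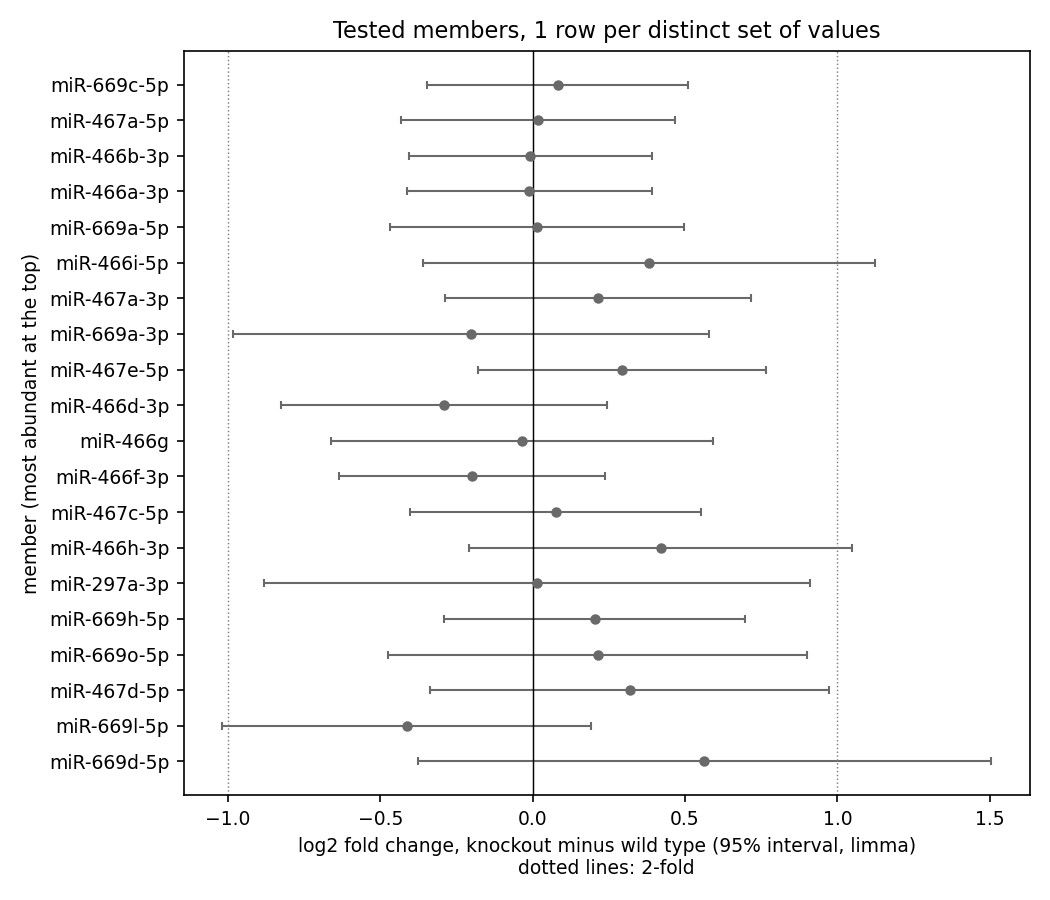
log2 fold change (knockout minus wild type) of the 20 distinct tested members with its 95% interval from limma, the most abundant at the top, and dotted lines at a 2-fold change. Every interval includes 0, and those of miR-466i-5p, miR-466h-3p, miR-669l-5p and miR-669d-5p cross a dotted line.

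miR-669c-5p had the highest mean of the members. It was at 1904, 1284, 1162 and 1122 in wild-type replicates 1, 2, 3 and 4 and at 1580, 1146, 1813 and 1220 in knockout replicates 1, 2, 4 and 5. Wild-type replicate 1 and knockout replicates 1 and 4 were high and the groups overlapped. The log2 fold change was 0.08 ± 0.20 (SE).

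miR-467a-5p, which stands for miR-467b-5p too, was at 1000, 1524, 1063 and 1815 in wild type, against 1200, 1294, 1136 and 1754 in the knockout, in the same order of replicates. Wild-type replicates 2 and 4 and knockout replicate 5 were high, a different set of libraries from miR-669c-5p. Its log2 fold change was 0.02 ± 0.21, while its mean rescaled value was 1351 for wild type against 1346 for the knockout. The other strand, miR-467a-3p with miR-467d-3p, was at 786, 671, 407 and 919 in wild type, against 707, 653, 976 and 795 in the knockout. Wild-type replicate 3 held the lowest value, the groups overlapped, and the log2 fold change was 0.21 ± 0.23.

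miR-466b-3p, with miR-466c-3p and miR-466p-3p, was at 1138, 1331, 1171 and 1730 in wild type, against 1307, 964.6, 1508 and 1578 in the knockout. The means were nearly equal, 1342 ± 272 and 1339 ± 275 (SD, n = 4 each). Wild-type replicate 4 was the highest library and knockout replicate 2 the lowest. miR-466a-3p with miR-466e-3p was at 1084, 1261, 1100 and 1640 in wild type, against 1236, 906, 1433 and 1490 in the knockout, in the same order of libraries. The log2 fold changes were -0.01 ± 0.18 for both sets, and with scaling by library total or by upper quartile both were above 0.

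miR-669a-5p, with miR-669p-5p, was at 1117, 1166, 618 and 593 in wild type, against 804, 773, 901 and 888 in the knockout. The wild-type libraries were 2 high and 2 low, with all 4 knockout libraries between them, so the SD was 310 in wild type and 62.6 in the knockout around means of 874 and 842. The log2 fold change, taken from mean log2 values, was 0.01 ± 0.22, opposite in sign to the difference of these means. Its other strand, miR-669a-3p with miR-669o-3p, was at 457, 485, 186 and 755 in wild type, against 262, 319, 480 and 444 in the knockout. Wild-type replicates 3 and 4 were the lowest and the highest of the 8 libraries, and the log2 fold change was -0.20 ± 0.36. Without wild-type replicate 3 it was -0.58 and without wild-type replicate 4 it was 0.07, so those libraries set its size and its sign. The fit without wild-type replicate 3 gave a limma unadjusted p of 0.0356 (adjusted p 0.672). On replicates 1, 2 and 4 alone the log2 fold change was -0.68, with a limma unadjusted p of 0.0214 (adjusted p 0.509). With replicate number as a block in that fit, the limma unadjusted p was 0.00154 (adjusted p 0.0879).

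miR-466i-5p, whose hairpin is annotated on chromosome 13, varied most among the abundant members without a step. Whether its reads come from that locus was not tested. It was at 318, 713, 1236 and 812 in wild type, against 1278, 888, 742 and 782 in the knockout, a range of 4.02-fold between libraries. Wild-type replicate 1 was lowest, wild-type replicate 3 and knockout replicate 1 were highest, and the log2 fold change was 0.38 ± 0.34. Without wild-type replicate 1 it was 0.01, without knockout replicate 1 it was 0.21, and without wild-type replicate 3 it was 0.67. On replicates 1, 2 and 4 alone it was 0.74, with a limma unadjusted p of 0.0427 (adjusted p 0.712).

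**Figure D5:**
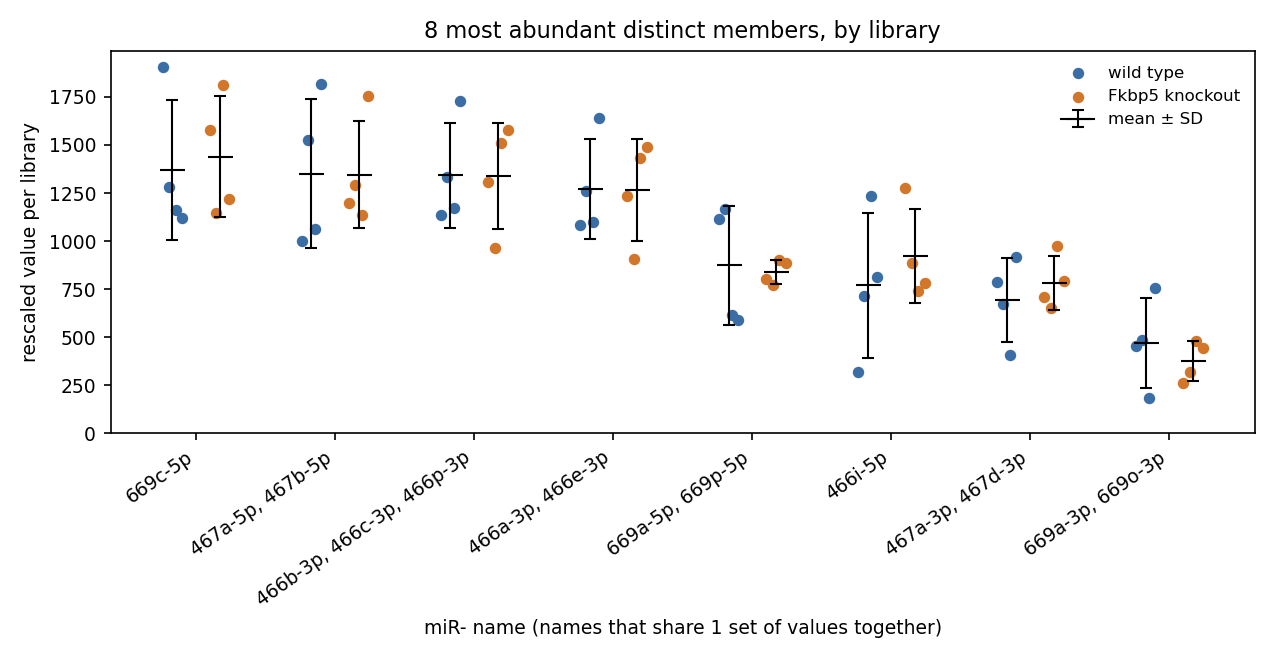
Rescaled value in each library of the 8 most abundant distinct members, wild type in blue and Fkbp5 knockout in orange (4 libraries each), with mean ± SD in black and names that share 1 set of values joined by commas. The genotypes overlap for each of the 8, and the wild-type values of miR-669a-5p lie above and below all 4 knockout values.

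These 8 sets held 91.3 to 93.6% of the summed level of all members, and 87.8 to 91.2% with rows divided by their common divisor. On that scale miR-467a-5p, miR-669a-5p, miR-467a-3p and miR-669a-3p would average 123, 61.3, 67.2 and 35.3, and miR-467e-5p and miR-466d-3p would come among the 8 highest. Of the 12 less abundant tested sets, 0 passed the test. Among the miR-467 names, miR-467e-5p averaged 124 ± 35.4 in wild type against 149 ± 26.7 in the knockout (log2 fold change 0.29 ± 0.22), miR-467d-5p at 22.5 ± 7.85 and 27.9 ± 7.86 (0.32 ± 0.30) and miR-467c-5p at 46.5 ± 10.7 and 48.8 ± 8.98 (0.08 ± 0.22). With miR-467a-5p and miR-467a-3p, all 5 miR-467 sets had a fold change above 0 and 0 passed the test. That direction did not hold throughout, since miR-467a-5p, miR-467a-3p and miR-467c-5p were each below 0 when some single library was left out.

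Of the miR-466 names, miR-466h-3p was at 31.6, 42.9, 27.4 and 37.99 in wild type, against 43.6, 37.8, 83.8 and 33.5 in the knockout (log2 fold change 0.42 ± 0.29). Its knockout mean rested on replicate 4, and without that library the log2 fold change was 0.13. miR-466d-3p was at 84.8 ± 16.5 and 71.1 ± 23.6 (-0.29 ± 0.24), miR-466f-3p at 61.1 ± 11.4 and 52.8 ± 7.94 (-0.20 ± 0.20) and miR-466g at 61.8 ± 20.9 and 59.8 ± 19.1 (-0.03 ± 0.29, and 0.02 with upper quartile scaling).

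Of the miR-669 names, miR-669h-5p was at 31.9 ± 5.57 and 37.0 ± 7.45 (0.20 ± 0.23), and miR-669o-5p at 24.5 ± 3.84 and 30.3 ± 11.6 (0.21 ± 0.31). The fold change of miR-669o-5p was 0.02 without knockout replicate 4 and 0.53 without knockout replicate 2. miR-669l-5p was at 13.9, 16.5, 11.9 and 21.7 in wild type, against 13.8, 10.2, 11.7 and 10.6 in the knockout (-0.41 ± 0.28). 3 of the 4 knockout libraries were below every wild-type library, and the differences were a few units. miR-669d-5p, whose deposited values were all multiples of 2, had the largest fold change, 0.56 ± 0.43, from 9.38 ± 2.67 and 15.9 ± 9.76. Knockout replicate 4 held 29.2 of it, and without that library the log2 fold change was 0.22. Without knockout replicate 2 it was 0.92, with a limma unadjusted p of 0.0343 (adjusted p 0.991), and without wild-type replicate 1 it was 0.36. The miR-297a-3p set was at 44.5, 19.8, 43.0 and 43.4 in wild type, against 32.2, 16.4, 70.2 and 45.8 in the knockout (0.01 ± 0.41), on 4 to 18 steps per library.

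The filter for low values fell among names of a few units. By mean rescaled value, miR-467d-5p (25.2), miR-669l-5p (13.8) and miR-669d-5p (12.7) were just inside it. miR-669k-5p (6.66), miR-669b-5p (6.64) and miR-466c-5p (5.64) were just outside.

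Other names with the same kind of repeat gave no call either. Of the 5 with a run of UGUGUGUG or ACACACAC, miR-672-5p averaged 3362 ± 809 in wild type against 3227 ± 511 in the knockout (log2 fold change -0.04 ± 0.17), miR-574-5p at 418 ± 79.9 and 390 ± 82.4 (-0.11 ± 0.19) and miR-32-3p at 29.2 ± 10.9 and 28.4 ± 2.98 (0.04 ± 0.30), with 0 of the 3 tested past the threshold. miR-1187 and miR-3082-5p were under the filter. None of the 5 had a common divisor above 1, although miR-672-5p was more abundant than any member.

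Library totals were 16.2 to 21.6 in units of 1000000. The 4 neuronal markers (miR-124-3p, miR-9-5p, miR-128-3p and miR-138-5p) were above 0 in all 8 libraries and summed to between 6217051 and 8182299. Of 7 markers of pluripotent or trophoblast cells, the miR-290 to miR-295 group, miR-290a-3p, miR-291a-3p, miR-294-3p and miR-295-3p were at 0 in every library, and the 7 together summed to 0 in each wild-type library and to 0 to 1.95 in the knockout. Epithelial and olfactory markers (4 of 4 detected) summed to 1185 to 4624 in wild type and 614 to 3824 in the knockout, endothelial and smooth muscle markers (3 of 3) to 72088 to 95062 and 51306 to 80809, oligodendrocyte markers (3 of 3) to 11715 to 18652 and 11808 to 15144, red blood cell markers (3 of 3) to 3042 to 5251 and 3795 to 4878, and leukocyte markers (4 of 4) to 8719 to 10611 and 9150 to 13065. Their part in the levels of the members was not tested.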

How the data were processed

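Small RNA from the prefrontal cortex was made into libraries with a NEXTflex kit, size-selected on a gel and sequenced on an Illumina HiSeq, per the labels' protocols. The submitters' processing notes name cutadapt 1.11, Bowtie 1.1.2, HTSeq 0.6.1p1, edgeR and mm10, without order or settings. Per the file headers the authors deposited normalized counts, 1 value per mature name. These deposited values were handled as a score of no fixed unit, made by the authors with a normalization that the sources used here do not give, so count models were not used, although all values are whole numbers and common divisors survive in them.

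Values were rescaled by a trimmed mean of log ratios (30% of ratios and 5% of levels trimmed at each end). Names that had 10 or more, on the scale of the median library, in 4 or more libraries, and 15 or more over all libraries, were moved to log2(value + 1) and fitted together with limma 3.58.1 in R 4.3.3 (mean-variance trend, Benjamini-Hochberg at 0.05). Fold changes are on that log2(value + 1) scale, which understates the change of low names. The procedure was tested on simulated data in which each row was drawn independently. Identical rows and values in steps were not built in, so that test does not cover them. Hairpin positions are from GENCODE M21 (GRCm38). The members and lists were chosen with earlier results of these data known. All tested members are named, the 8 most abundant in every library. Values in every library for less abundant members were chosen after they were seen. Other scalings, pseudocounts, filters, no trend, identical rows once, rows divided by their common divisor, a replicate block and leaving out each library served as alternatives. Nothing gives the number of reads behind a value, so no counting interval is printed.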

Additional observations from a re-analysis of the deposited data

Results flagged for a closer look

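Of 56 groups of 4 libraries examined, from the 20 distinct members, the sums and the detection counts, 2 had 1 library well apart from the rest of its genotype. Chance flags about 1 in 20, or 2.8. The miR-297a-3p set was low in wild-type replicate 2, at 19.792 against 42.963 to 44.541 in the other wild-type libraries. The summed level of the miR-466 names was low in knockout replicate 2, at 2944.0 against 4031.8 to 4134.6 in the other knockout libraries.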

How the results depend on the processing

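The count of members past the threshold was 0 under each alternative run, and 0 to 0 with 1 library left out. Over 388 alternative values of the 20 sets, 0 passed; the smallest adjusted p was 0.0879 (miR-669a-3p under the replicate block) and 0.509 outside the block. Dividing rows at a mean of at least 20 by their common divisor was chosen after seeing the data, and gave a median log2 fold change of 0.0131. The values of miR-669d-5p were left undivided there.

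The sign was kept under each alternative by 10 of the 20 sets, but not the size. With 1 library left out they ran from 0.0142 to 0.6682 (miR-466i-5p), 0.2164 to 0.9175 (miR-669d-5p), 0.0226 to 0.5251 (miR-669o-5p), 0.1333 to 0.5651 (miR-466h-3p), 0.1624 to 0.4918 (miR-467d-5p), 0.1452 to 0.4491 (miR-467e-5p), 0.0881 to 0.3324 (miR-669h-5p), -0.4875 to -0.0957 (miR-466d-3p), -0.3154 to -0.1251 (miR-466f-3p) and -0.5284 to -0.2698 (miR-669l-5p). With upper quartile scaling, miR-466b-3p was at 0.0510, miR-466a-3p at 0.0479 and miR-466g at 0.0239, and with library totals miR-466b-3p was at 0.0100 and miR-466a-3p at 0.0068. Upper quartile scaling moved the median of all names by 0.0577. With 1 library left out, the ranges of those that changed sign were -0.0445 to 0.2568 (miR-669c-5p), -0.1241 to 0.1685 (miR-467a-5p), -0.1035 to 0.1413 (miR-466b-3p), -0.1063 to 0.1408 (miR-466a-3p), -0.1544 to 0.1773 (miR-669a-5p), -0.0154 to 0.3621 (miR-467a-3p), -0.5846 to 0.0733 (miR-669a-3p), -0.2324 to 0.1453 (miR-466g), -0.0172 to 0.2123 (miR-467c-5p) and -0.3057 to 0.38 (miR-297a-3p). The cause was not tested. The members' median ran from -0.1035 to 0.1413 and the log2 ratio of their sum from -0.0351 to 0.1157.

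The labels do not say that replicate numbers pair libraries, and same-numbered libraries correlated at 0.0652, -0.0385 and 0.132 in their deviations. A replicate block on numbers 1, 2 and 4 gave 0 members past the threshold and a median of -0.0874, the same as those 6 libraries without the block. There miR-467a-5p was at -0.2086, miR-669a-5p at -0.1470, miR-467a-3p at -0.0281 and miR-297a-3p at -0.0052. miR-466i-5p was at 0.74, with a limma adjusted p of 0.308 in the block and 0.712 without it, and miR-669a-3p at -0.68, with a limma adjusted p of 0.0879 in the block and 0.509 without it.

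Of the 66 names detected, 43 reached a value of 5 and 37 a value of 10. There were 11 identical groups among the members, 53 when all names were compared, and 11 with a tolerance of 5%.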
